A study of Mus musculus with 21 samples.

Results

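The regions described here are stretches of chromosomes 1 to 19 that carried called H3K36me3 peaks again and again in Setd2 knockout (KO) line 2 of C2C12 mouse myoblasts, and in no wild-type (WT) library. A base was kept when it lay inside peaks of at least 3 of 4 line 2 lists and in no peak of any of the 10 WT lists, and intervals of at least 200 bp were retained. The 4 lists came from day 0, from control medium on days 1 and 5, and from methionine restriction at day 5. This gave 1099 regions with a total length of 606 kb, or 0.0248% of the span of these chromosomes. Without 1 of the 4 line 2 lists, when a base had to lie in all 3 others, there were 690 regions (day 0 left out), 503 (day 1 control), 488 (day 5 control) or 483 (day 5 restricted), of 248 to 359 kb. The 20 lists of the series hold 958889 peaks on all chromosomes, and a region is an overlap of peaks from several lists, not one of these peaks. The regions were chosen by the peak calls of line 2 and WT, so their number, their width and their absence from WT are descriptions with no test.

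The study followed the mark while C2C12 cells, a line that fuses into myotubes in culture, went from day 0 to day 5. WT cells had 2 libraries in each of 5 conditions: day 0, then control medium or methionine restriction, each at day 1 and day 5. KO lines 1 and 2, both labelled Setd2 KO, had 1 library each per condition, and the labels say neither how the lines were made nor whether each is a single clone. Names inside the peak lists call the line 2 libraries replicate 2 of a KO group, and the labels were followed here. Peak lists carry no read depth, so depth per library is unknown, and a base without a peak may only have lacked reads. The series differed strongly in list length on chromosomes 1 to 19: line 2 had 3589, 5439, 11618 and 13724 peaks in the lists used by the rule, for day 0, day 1 control, day 5 control and day 5 restricted, and 120 in the day 1 restricted list left out of it.

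H3K36me3 is trimethylation of lysine 36 of histone H3. SETD2 adds it while travelling with elongating RNA polymerase II, so the mark normally lies over the bodies of transcribed genes and is scarce between genes. In mammals SETD2 is held to be the main enzyme for the trimethyl state, and other enzymes such as the NSD family add the mono- and dimethyl states.

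The regions were mostly outside genes, and few reached a gene start. Promoter windows were taken as the 250 bases upstream of a gene start (RefSeq, GRCm38.p6). Of the 31396 windows used on chromosomes 1 to 19, 5 held bases of a region, or 0.0159%. Of 400 bp bins outside WT peaks 0.0478% did, but these bins are wider than the windows and hold no WT peak base. In 4 of the 5 promoters the whole window lay inside a region. These 4 are printed because they are the gene starts at which the recurrent peaks can be read as sequence. The genes are Ccl8 (a chemokine that attracts monocytes and other leukocytes), Cd53 (a tetraspanin of leukocytes), the predicted coding gene Gm28710 and the long noncoding RNA D730003K21Rik. Capitals mark every CG dinucleotide, which reads the same on both strands.
Ccl8, chr11:82114935-82115184, plus strand: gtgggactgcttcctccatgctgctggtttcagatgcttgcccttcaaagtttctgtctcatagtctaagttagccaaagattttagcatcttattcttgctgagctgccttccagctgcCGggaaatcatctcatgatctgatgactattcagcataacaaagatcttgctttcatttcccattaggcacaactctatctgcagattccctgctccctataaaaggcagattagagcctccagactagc
Cd53, chr3:106790150-106790399, minus strand: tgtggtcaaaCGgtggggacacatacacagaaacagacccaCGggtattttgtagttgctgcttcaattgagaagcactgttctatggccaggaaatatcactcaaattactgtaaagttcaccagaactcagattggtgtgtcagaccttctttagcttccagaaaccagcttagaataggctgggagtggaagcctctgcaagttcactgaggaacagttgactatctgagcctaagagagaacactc
Gm28710, chr5:16791541-16791790, plus strand: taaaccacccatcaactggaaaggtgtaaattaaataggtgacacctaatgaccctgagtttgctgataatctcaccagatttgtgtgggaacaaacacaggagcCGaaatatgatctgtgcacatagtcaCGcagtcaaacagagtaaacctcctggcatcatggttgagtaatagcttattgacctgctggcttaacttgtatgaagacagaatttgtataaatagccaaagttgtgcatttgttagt
D730003K21Rik, chr9:116327073-116327322, plus strand: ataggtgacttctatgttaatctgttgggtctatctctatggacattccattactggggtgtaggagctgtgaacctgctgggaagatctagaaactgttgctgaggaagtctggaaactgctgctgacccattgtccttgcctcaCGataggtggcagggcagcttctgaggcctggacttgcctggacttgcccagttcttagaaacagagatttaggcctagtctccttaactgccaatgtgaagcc
The windows hold 1 CG in Ccl8, 2 in Cd53, 2 in Gm28710 and 1 in D730003K21Rik, against a median of 6 over all windows. Among all windows 18.5% hold 1 CG or fewer and 28.7% hold 2 or fewer.

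At Ccl8 the region was 747 bp wide (chr11:82114517-82115263), spanned the gene start and lay 47.9 kb from the nearest WT peak. Line 2 peaks covered 100% of it at day 0, 81.3% in the day 1 control list, 100% in the day 5 control list and 69.9% in the day 5 restricted list. The line 1 lists, which the rule did not use, covered 100% at day 0, 54.1% at day 1 in control medium, 0% at day 1 under restriction and 100% in both day 5 lists. The region at Cd53 was 312 bp wide and lay 45.4 kb from a WT peak. Line 1 covered none of it at day 0 or in either day 1 list, but 100% in the day 5 control list and 85.9% in the day 5 restricted list. The regions at D730003K21Rik and Gm28710 lay nearer to WT peaks, at 22.7 and 4.21 kb. The Ccl8 region was shared by 4 of 5 line 1 lists and the Cd53 region by the day 5 lists alone. The fifth promoter, of the olfactory receptor gene Olfr811, held 38 bases of a region that reached into the gene body.

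Chromosome spread was uneven. Chromosome 15 had 146 regions, or 1.41 per Mb, and chromosome 1 had 184, or 0.942 per Mb. Chromosomes 16 and 3 followed with 0.816 and 0.688 per Mb. At the other end chromosome 19 had 3 regions, or 0.0515 per Mb, 27.3-fold fewer per Mb than chromosome 15. Chromosomes 1, 2, 3 and 15 together held 521 regions, 47.4% of all on 26.1% of the span, while chromosomes 7, 14, 17, 18 and 19 held 38 regions, 3.46% on 20.9% of the span.

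**Figure D1:**
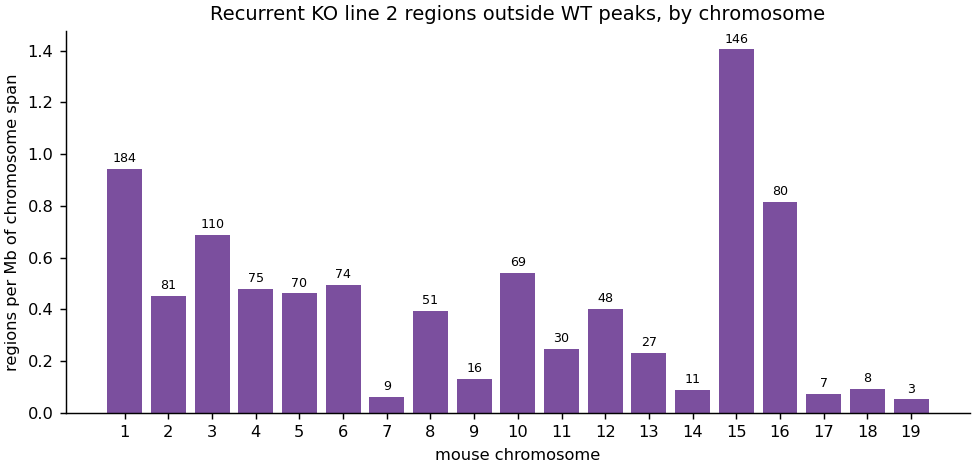
Regions per Mb of chromosome span (vertical axis) on each mouse autosome (horizontal axis), with the number of regions above each bar. Chromosome 15 stands highest at 1.41 per Mb, chromosome 1 follows at 0.942, and chromosomes 7, 14, 17, 18 and 19 stay below 0.1.

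Chromosome 15 also led each of the 4 line 2 lists by itself. Peaks per Mb were highest on chromosome 15 in all 4 lists, from 4.03 at day 0 to 16.1 at day 5 under restriction, and chromosome 16 was next in each. These lists chose the regions, so this is no separate measure. In the line 1 lists, counted outside WT peaks, chromosome 15 also had the most covered length per Mb in 4 of 5 lists, from 3.53 kb per Mb at day 0 to 14.7 at day 5 under restriction. The exception was the day 1 restricted list, led by chromosome 8 with 0.156 kb per Mb. The lines parted on chromosome 16, which was among the 5 lowest chromosomes of line 1 in the 4 lists other than day 1 restricted. At day 5 under restriction its cover outside WT peaks was 6.54 kb per Mb in line 2 and 4.95 in line 1. Median WT peaks per Mb ranged only 1.87-fold, from 22.7 on chromosome 3 to 42.3 on chromosome 11. Chromosome content of the 2 lines was not measured here, and its part in these densities was not tested.

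Regions were narrow and bunched. The median width was 390 bp, with quartiles of 279 and 597 bp and a maximum of 9369 bp, and 100 regions reached 1 kb. Of the 1099 regions, 707 (64.3%) lay within 10 kb of another. Only 350 of 2450 windows of 1 Mb held any, and the 20 fullest windows held 371 regions, 33.8% of the total. Near the length limit 49 regions were within 20 bp above it and 50 intervals within 20 bp below it. Line 1 peaks touched 32 of the former (65.3%) and 29 of the latter (58.0%).

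The line 2 lists did not contribute equally. The regions overlapped peaks of all 4 lists in 421 cases and of exactly 3 in 678. Where 1 list was missing it was day 0 in 314 regions, and day 1 control, day 5 control or day 5 restricted in 124, 113 and 127. Day 0 was also the shortest of these lists, with 1.87 Mb of peaks against 2.70 to 7.06 Mb. Peaks on the regions ranked above the middle of their own list in the authors' fold enrichment, with median percentiles of 62.2 at day 0 and 65.7, 72.1 and 69.4 in the other 3, and these are the lists that chose the regions. The day 1 restricted list of line 2 touched 0 regions. That list, with 120 peaks, met only 0.000372% of 400 bp bins outside WT peaks.

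Gene bodies held a small share of the regions. Of region bases, 24.9% lay inside annotated genes, against 42.6% of bases in 400 bp bins outside WT peaks and 48.7% of all bins. The 4 line 2 lists as deposited had 30.4% to 38.5%, and line 1 peak bases outside WT peaks had 41.4% to 58.4%. In all, 312 regions (28.4%) touched a gene and 209 (19.02%) touched a protein-coding gene. The other 787 lay a median of 45.7 kb from the nearest gene, with the farthest at 524 kb. Their nearest gene was a pseudogene in 322 cases (40.9%), a long noncoding RNA in 190 (24.1%) and a protein-coding gene in 169 (21.5%). For 400 bp bins outside WT peaks and genes these shares were 31.1%, 30.0% and 29.5%. Exons and introns could not be told apart, since the gene table gives only the ends of each gene.

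Chromosome 1 was the extreme among the chromosomes with over 50 regions, with 5.54% of its region bases in genes, although gene bodies take up 47.0% of its span. A few bunched places weigh on this share. Of the 117 kb of regions on chromosome 1, the 1 Mb window at 145 Mb held 28.7 kb and that at 112 Mb held 15.2 kb, with no region in a gene. On chromosome 15 the share was 35.5% of region bases, with gene bodies again at 47.0% of the span. Distance from WT peaks varied widely. The median was 178 kb, against 131 kb for the 400 bp bins outside WT peaks, 75 regions were over 1 Mb away, and 26 abutted a WT peak. The share over 100 kb from a WT peak was 61.4% for the regions and 55.5% for those bins.

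**Figure D2:**
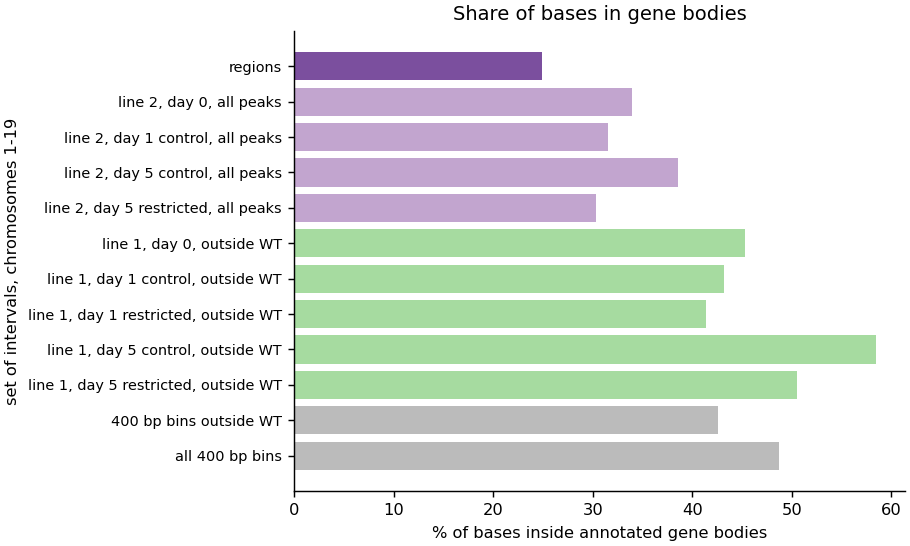
Percent of bases inside annotated gene bodies (horizontal axis) for the regions, the line 2 lists, line 1 peak bases outside WT peaks, and 400 bp bins. The regions have the lowest bar at 24.9%, the line 2 lists reach 30.4% to 38.5%, and the bins outside WT peaks reach 42.6%.

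Overlap with KO line 1 was much more frequent than the general cover of those lists. At day 0, 379 regions (34.5%) overlapped a line 1 peak by at least 1 base, where 0.245% of 400 bp bins outside WT peaks did. At day 1 in control medium it was 444 regions (40.4%) against 0.323% of bins. At day 5 it was 578 regions (52.6%) against 0.898% in control medium, and 618 (56.2%) against 1.34% under restriction. The day 1 restricted list of line 1, with 778 peaks, overlapped 43 regions (3.91%) against 0.0128% of bins. In all 786 regions (71.5%) met at least 1 line 1 list, against 2.06% of bins, and 313 met none. With line 1 peaks limited to a −log10 q of at least 3, the share that met any list was 39.3%, against 0.362% of bins. By list it was 10.9% at day 0 (0.0267% of bins), 14.5% in the day 1 control list (0.0446%), 0.273% in the day 1 restricted list (0.000353%), 24.6% in the day 5 control list (0.17%) and 26.8% in the day 5 restricted list (0.239%). Repeat, GC and mappability content of the regions were not measured here, and their part in the overlap was not tested. Covered to at least 50% by 1 list were 27.6% of regions at day 0 (0.141% of bins), 33.1% in the day 1 control list (0.193%), 1.09% in the day 1 restricted list (0.00606%), 45.8% in the day 5 control list (0.556%) and 48.0% in the day 5 restricted list (0.847%). The merged peaks of all 5 lists did so for 65.8% of regions (1.32% of bins). A wide region offers more bases than a bin for a peak to meet, so shares of bases were also compared.

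Line 1 covered 32.2% of region bases at day 0, 39.5% at day 1 in control medium, 2.41% at day 1 under restriction, and 48.0% and 50.3% in the day 5 control and day 5 restricted lists. Over all bases outside WT peaks the same lists covered 0.143%, 0.194%, 0.00607%, 0.594% and 0.865%. The ratios of these shares were 226, 203, 397, 80.7 and 58.1 in that order, so the ratio was lowest in the day 5 lists. The ratio was lower the more a list covered outside WT peaks, and the highest value it can take is also lower for such a list. It therefore does not rank the lists by sharing, and the share of region bases itself was highest in the day 5 lists. Seen from the line 1 side, the regions held 6.26%, 5.64%, 11.03%, 2.24% and 1.61% of what each list covered outside WT peaks. Line 1 peaks on the regions ranked above the middle of their lists in fold enrichment, with median percentiles of 65.5, 67.2, 52.1, 68.4 and 77.3. Their median widths were 645, 782, 300, 940 and 1029 bp, against 484, 477, 332, 601 and 540 bp over the whole lists. A wider peak is likelier to meet a region, and the part of width in these ranks was not tested. No test over samples was made, since the line 2 and WT calls chose the regions, and the regions are not replicates.

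Cover by line 1 was higher the more line 2 lists held a base. Bases outside WT peaks that lay in none of the 4 line 2 lists were covered by line 1 at day 5 in control medium to 0.505%. Those in exactly 1, 2, 3 and 4 lists were covered to 11.03%, 30.0%, 43.4% and 57.0%. At day 0 the series was 0.107%, 3.56%, 12.1%, 26.2% and 43.6%. The order held in all 5 line 1 lists. Over the same steps the share in gene bodies went down, from 43.4% with no line 2 list to 33.7%, 30.1%, 26.3% and 21.9%.

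**Figure D3:**
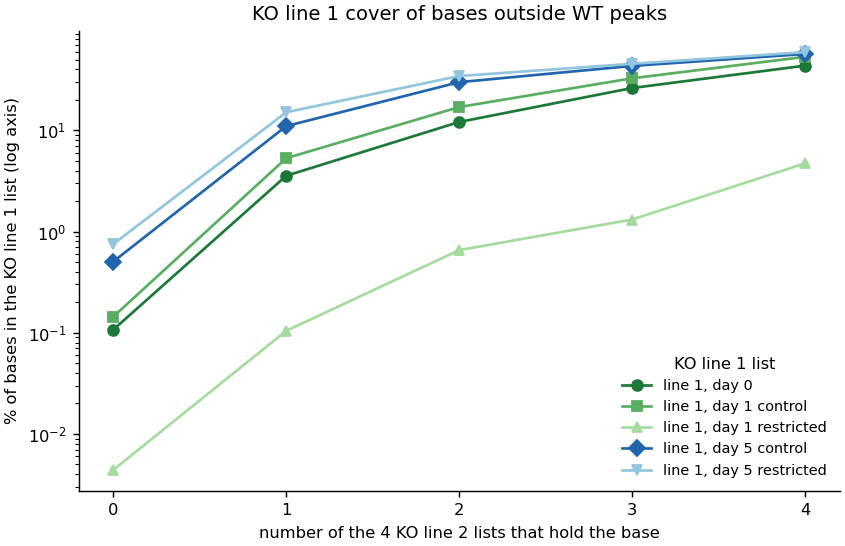
Percent of bases inside each of the 5 KO line 1 lists (vertical axis, log scale) for bases outside WT peaks, grouped by the number of the 4 line 2 lists that hold them (horizontal axis). Each line climbs at every step, at day 0 from 0.107% in no list to 43.6% in 4 lists.

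The same rule applied to line 1 in the same 4 conditions gave 2772 regions over 1645 kb. Of these, 344 (12.4%) overlapped the line 2 regions, where 0.0478% of 400 bp bins outside WT peaks did. In turn 377 line 2 regions (34.3%) overlapped the line 1 regions, where 0.123% of bins did. The shared length was 33.0% of the line 2 length and 12.2% of the line 1 length. In line 1, 41.1% of this recurrent length lay in gene bodies, against 24.9% in line 2.

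Sharing with line 1 differed by chromosome. On chromosome 10, 64 of 69 regions (92.8%) met a line 1 list, where 3.40% of its bins outside WT peaks did. On chromosome 16, 30 of 80 regions (37.5%) did, against 1.35% of bins. Chromosome 12 had a lower share of bins, 0.727%, yet 37 of its 48 regions (77.1%) met line 1. On chromosomes 1 and 15 the shares were 71.2% and 72.6%, against 2.85% and 3.75% of their bins.

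The fullest 1 Mb window lay on chromosome 1 in a span with no protein-coding gene. Its 29 regions, 28.7 kb in all, sat within chr1:145785711-145967272, 528 kb from Brinp3, a gene of neural cells. All 29 met line 1, with 19 at day 0, 25 at day 1 in control medium, 5 at day 1 under restriction, 25 at day 5 in control medium and 29 at day 5 under restriction. Line 2 peaks covered 16.1% to 32.4% of this 182 kb stretch in the 4 lists, and line 1 covered 15.5% to 36.7% outside its day 1 restricted list. WT peaks were few, in 2 of 10 lists and over at most 0.414% of the stretch, but they lay among the regions, and some regions abutted one. The median distance from these regions to a WT peak was 8.97 kb, against 178 kb over all regions. The widest region of all, 9369 bp at chr1:145943553-145952921, lies in this stretch, 1.445 kb from a WT peak. Line 1 covered 96.1% of it at day 0 and 100% in 3 lists, and 10.1% at day 1 under restriction.

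The second fullest window was on chromosome 15. Its 26 regions lay within chr15:49056794-49408021, 264 kb beyond Csmd3, a very long gene for a membrane protein with complement-like domains. Only 12 met line 1, and line 1 covered 0% to 1.48% of the stretch, against 4.44% to 16.99% in line 2. WT had no peak there in any list. Next came 25 regions on chromosome 1, 877 kb from Dsel, of which 23 met line 1.

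Of these 4 windows, the fourth was the one with protein-coding genes. Its 24 regions spanned 91.1 kb of an olfactory receptor cluster, chr10:129715670-129806813, from near Olfr805 to just past Olfr811. Olfactory receptor genes encode odorant receptors and are normally silent outside sensory neurons of the nose. Line 2 covered 5.77% of the stretch at day 0, and 33.9%, 34.0% and 33.0% at day 1 control, day 5 control and day 5 restricted. Line 1 covered more of it, 28.6% at day 0, 66.7% at day 1 in control medium, 61.1% at day 5 in control medium and 68.6% at day 5 under restriction, and still 9.23% at day 1 under restriction. No WT list had a peak in the stretch. All 24 regions met line 1 in both control lists after day 0. Of the 9 regions that all 5 line 1 lists covered to at least 50%, 6 were in this cluster; 0.00113% of bins outside WT peaks met that mark. Olfactory receptor genes are close copies of one another, and how the authors treated reads with several matches is not given in the sources used here.

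**Figure D4:**
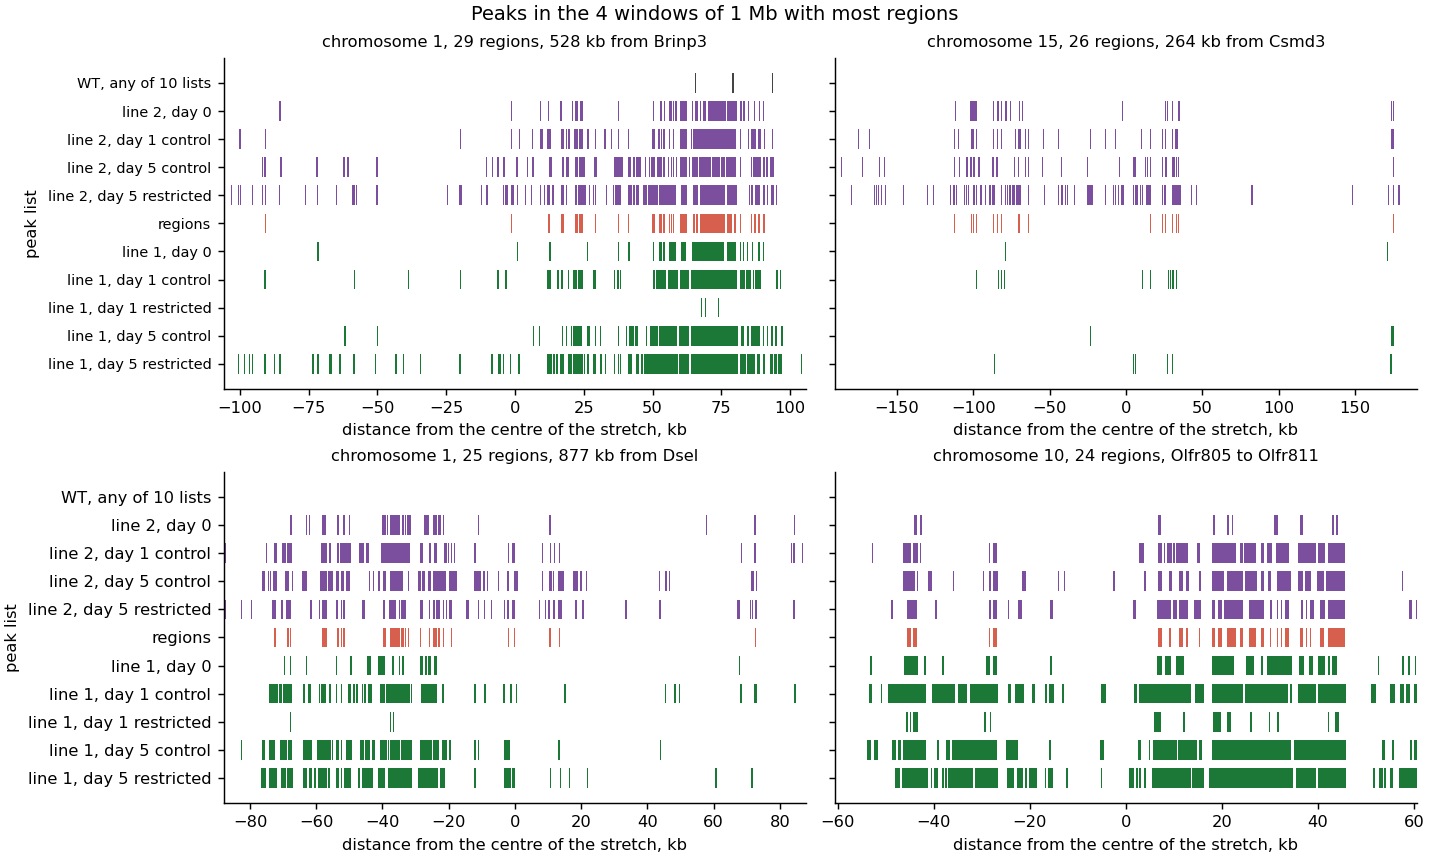
Peaks in the 4 windows with most regions, drawn against distance from the centre of each stretch in kb (horizontal axis), with 1 row per KO list and 1 for the 10 WT lists pooled (vertical axis), line 2 in purple, line 1 in green, the regions in red and WT in grey. WT rows are blank apart from short marks in the first panel, and line 1 has few peaks in the panel near Csmd3 and in its day 1 restricted list.

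The gene that held the most region bases was Cnbd1, which encodes a protein with a cyclic nucleotide binding domain. It had 14 regions and 10136 bases, 2.86% of its 355 kb body, and no WT list had a peak in it. Line 1 covered these regions to 17.5% at day 0, 58.2% and 40.6% in the day 1 and day 5 control lists, and 2.28% and 63.3% in the day 1 and day 5 restricted lists. Cdh18, a cadherin of neural tissue, had 8384 bases in 10 regions. Each of the 10 WT lists had peaks in its body, covering 0.0901% to 0.665% of it. Line 1 covered 61.5% of their bases at day 0, 85.7% in the day 1 control list, 4.53% in the day 1 restricted list, 60.3% in the day 5 control list and 27.4% in the day 5 restricted list. Atp8b4, a phospholipid flippase gene, had 7038 bases in 13 regions. Line 1 covered these to 25.7% at day 0, 31.2% and 4.40% in the day 1 and day 5 control lists, and 0% and 36.5% in the day 1 and day 5 restricted lists. Regions of 8164 and 3912 bp, both among the 10 widest, lay 1.17 and 12.2 kb from the end of Atp8b4. Line 1 covered the 8164 bp region to 65.2% at day 0, 49.2% and 7.81% in the day 1 and day 5 control lists, and 0% and 22.1% in the day 1 and day 5 restricted lists.

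Trdn, a muscle gene, came next after Cdh18. It encodes triadin, which ties calsequestrin to the ryanodine receptor in the calcium release machinery of muscle. It had 8 regions and 7072 bases, and WT cover of its body was 0% in all 10 lists, day 5 included. Line 1 covered its regions to 26.1% at day 0, 100% at day 1 in control medium, 17.1% at day 1 under restriction, 98.9% at day 5 in control medium and 100% at day 5 under restriction. Over the whole 393 kb body line 1 ranged from 0.430% to 23.0%.

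The other leading hosts differed in how far line 1 covered their regions. Glra3, a glycine receptor subunit, had 6731 bases in 12 regions. Line 1 covered these to 83.9% in the day 5 restricted list, 14.8% in the day 5 control list and 37.2% in the day 1 control list, and had no peak on them at day 0 or in the day 1 restricted list. Csmd3 had 5770 bases in 8 regions, covered by line 1 to 38.2% at day 0, 62.7% and 67.7% in the day 1 and day 5 control lists, and 11.7% and 80.1% in the day 1 and day 5 restricted lists. Unc5c, a netrin receptor of axon guidance, had 3381 bases in 7 regions, which line 1 covered to 38.0% at day 0, 50.2% and 60.5% in the day 1 and day 5 control lists, and 0% and 88.1% in the day 1 and day 5 restricted lists. Zfp804a, a zinc finger gene, had 3484 bases in 2 regions, on which line 1 had no peak at day 0 or day 1, and covered 26.8% in the day 5 control list and 17.6% in the day 5 restricted list. Cdh10, another cadherin, had 3339 bases in 8 regions, and line 1 was listed at 0 there in all 5 lists. So the hosts ran from Trdn, nearly all of whose region bases line 1 covered in 3 lists, to Cdh10, with none. The noncoding gene Gm35507 near Cd53 had 4383 bases in 7 regions.

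**Figure D5:**
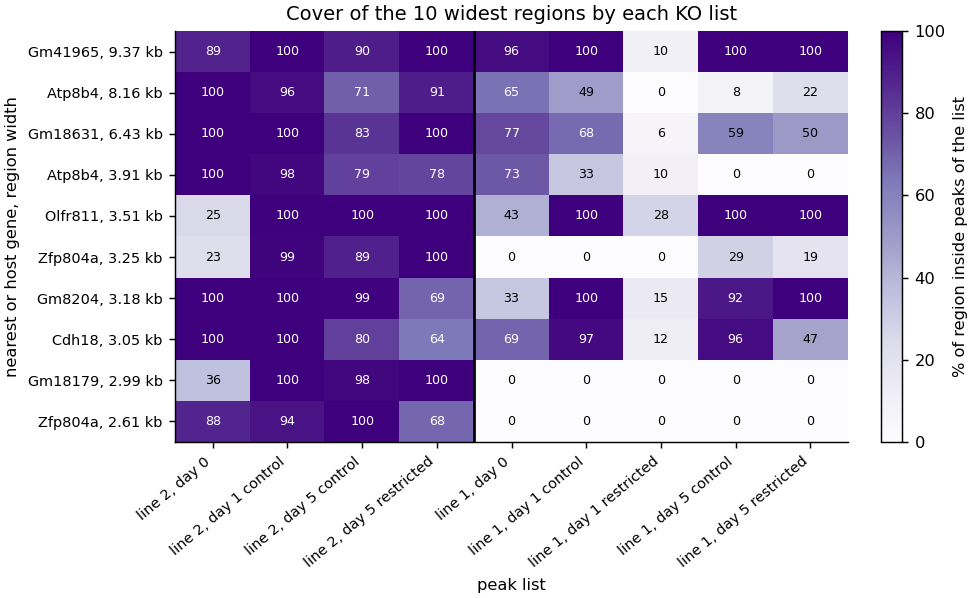
Percent of each of the 10 widest regions (rows, by host or nearest gene and width in kb) inside peaks of each list (columns), with the 4 line 2 lists that chose them left of the black line and the 5 line 1 lists right of it. Line 1 covers 100% of the widest region in 3 lists, and 0% of the bottom pair of regions in all 5.

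Among the 10 widest, the third, 6427 bp at chr12:88218715-88225141, lay over the pseudogene Gm18631 and 36.8 kb from Pramel51. Line 1 covered it to 77.4% at day 0, 67.7% and 59.2% in the day 1 and day 5 control lists, and 5.73% and 50.04% in the day 1 and day 5 restricted lists. The fifth, 3509 bp beside Olfr811, was covered to 100% by line 1 in 3 lists. Line 1 covered none of the 2989 bp region nearest to Gm18179 or of the 2610 bp region 53.3 kb from Zfp804a. Outside the olfactory cluster, the regions covered to at least 50% by all 5 line 1 lists were 2 on chromosome 1, nearest to Gm8204 and Gm41965, and 1 on chromosome 6, nearest to Slco1a5.

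Across the annotation 169 genes held bases of a region, 0.359% of all genes on these chromosomes. Of these 99 were protein-coding, 0.479% of that class, with a median body of 236 kb against 17.5 kb for all protein-coding genes. Protein-coding genes of at least 200 kb held a region in 56 of 945 cases, 5.93%. WT cover was 0 in all 10 lists for 45 of the 99 (45.5%), near the 44.0% of all protein-coding genes and the 39.3% of those of at least 200 kb. It was under 5% in every list for 81 (81.8%), against 49.9% of all and 72.9% of the long ones. None had a median WT cover of 50% or more, against 21.0% of all and 0.847% of the long ones. The rule removes bases inside WT peaks, so low WT cover of the hosts is partly built in.

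The gene lists gave few hits. None of the 38 muscle genes listed held a region, and Trdn is not on that list. None of 21 genes for writers, erasers and readers of H3K36 methylation did, Setd2 included, nor did any of 29 genes for AP-1, TEAD and RUNX factors and their known targets, 25 matrix and cytoskeleton genes or 39 Hox genes. Mef2c, Thbs1 and Fn1 were the nearest coding gene of some regions, and the closest of these was 99.8 kb from Fn1. Of 30 long neuronal adhesion and synapse genes 5 held a region (16.7%), namely Cdh18, Csmd3, Cdh12, Magi2 and Opcml, beside 5.93% of protein-coding genes of at least 200 kb. These 5 bodies are 929 to 1485 kb long, so that class is not matched to them in length. Cdh18, Csmd3 and Cdh12 lie on chromosome 15, which had the most regions per Mb, and Magi2 and Opcml held 1 region each. The part of gene length and chromosome in this share was not tested. Olfactory receptor genes did so in 4 of 1101 cases (0.363%), all in the chromosome 10 cluster, and vomeronasal receptor genes in 1 of 352, Vmn2r85 (0.284%). Zinc finger genes named Zfp held a region in 2 of 388 cases (0.515%), Zfp804a and Zfp804b, and developmental transcription factors in 1 of 119, Pax8 (0.840%). Apart from the long neuronal genes, these shares lie near the 0.479% of all protein-coding genes, and the lists that held none have 39 genes or fewer. No list was tested.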

How the data were processed

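H3K36me3 ChIP-seq was taken from 20 deposited broad-peak files of 9 columns, each belonging to 1 library. Per the submitters' processing notes the build is GRCm38. The aligner, the peak caller, its control and the treatment of multi-mapping reads are not given in the sources used here. Each list holds, as deposited by the authors, a fold enrichment (a ratio), a −log10 p and −log10 q, and a score per peak. The fold served only for ranks within a list, the −log10 q only for stricter thresholds, and the score was not used. The lowest −log10 q was 1.00. Per the labels' protocols, Drosophila chromatin was added as a spike-in, which was not used for scaling here. The input library was not used here.

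Peaks were merged per chromosome, and intervals were combined with numpy 2.4.6 and pandas 2.3.3 in Python 3.11.15. On 200 simulated sets the interval code gave 0 differences from counting single bases. Genes are the 47042 RefSeq genes on chromosomes 1 to 19 of GRCm38.p6, and promoter sequences are RefSeq's. The background was 400 bp bins that held no WT peak base, between the first and last gene or peak of a chromosome. The members, gene lists and alternatives were chosen with earlier results of these data known. The rule for named genes took the 10 with most region bases, those at the 10 widest regions, at up to 10 regions most covered by line 1, at the 5 fullest windows, and list genes that held a region. Other genes, those at promoters among them, were named after their values were seen.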

Additional observations from a re-analysis of the deposited data

How the results depend on the processing

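Stricter rules on line 2 left fewer regions, fewer bases in genes and a larger line 1 share, as far as tried. Line 1 shares are given as percent of regions for day 0, day 1 control, day 1 restricted, day 5 control, day 5 restricted and any list. Recurrence in at least 2 of 4 lists gave 3875 regions over 2091 kb, with 28.4% of bases in genes and line 1 shares of 19.1, 24.4, 1.65, 38.1, 43.2 and 57.1%. All 4 lists gave 334 regions over 166 kb, with 21.4% of bases in genes and line 1 shares of 46.4, 56.9, 7.19, 60.8, 64.4 and 80.8%, and 11.1% of regions on chromosome 15. A minimum of 500 bp gave 397 regions over 381 kb, with 22.4% of bases in genes and line 1 shares of 47.1, 55.7, 6.8, 61.2, 63.7 and 78.3%, and with 100 bp the day 0 share was 31.4%. Line 2 peaks with a −log10 q of at least 2 gave 314 regions over 258 kb, with 21.3% of bases in genes and line 1 shares of 49.0, 58.6, 9.55, 68.8, 68.8 and 83.4%. A −log10 q of at least 3 gave 46 regions over 66.9 kb, with 13.7% of bases in genes and line 1 shares of 73.9, 78.3, 26.1, 71.7, 73.9 and 89.1%. Requiring 50% of a region to be covered lowered the line 1 shares to 27.6, 33.1, 1.09, 45.8, 48.0 and 65.5%. Line 1 peaks with a −log10 q of at least 3 lowered them to 10.9, 14.5, 0.273, 24.6, 26.8 and 39.3%. These peaks are a part of the same lists, so the shares could not rise. With protein-coding genes alone, 19.02% of regions touched a gene and the median distance to one was 105 kb instead of 19.3 kb. To the nearest gene start, leaving out regions on a chromosome with no such entry, it was 117 kb.

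Leaving out each of the 4 line 2 lists of the rule and each WT list in turn, but no line 1 list, gave 483 to 1106 regions and 248 to 611 kb. The low ends came from leaving out a line 2 list, since a base then had to lie in all 3 others. With 1 WT list left out at a time the count stayed at 1099 to 1106. The share in genes was 21.83 to 25.02% and that on chromosome 15 10.5 to 13.5%. The line 1 shares were 34.4 to 44.7, 40.3 to 52.9, 3.89 to 6.0, 52.5 to 59.0, 56.1 to 61.8 and 71.5 to 78.5%, and the share met by the line 2 day 1 restricted list was 0 to 0.271%. Chromosome 15 had the most regions per Mb in 21 of 23 settings, and chromosome 1 did with all 4 lists or a −log10 q of at least 3. Joining intervals within 1 kb, a 5 kb margin around WT peaks, and allowing a base in 1 WT list moved no value beyond 1.5-fold or, for shares, beyond the 95% binomial interval of the main value. No paired analysis was possible because no result comes from a test: only WT has more than 1 library per condition, and its cover of the regions is 0 by the rule. Line 1 was not compared with line 2 by condition in a test, since the rule set line 2 cover. Depth is unknown, so a region outside WT peaks need not lack the mark in WT.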

Other observations

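Chromosome X, which the rule leaves out, gave 18 regions of 10.6 kb in all under the same settings, or 0.105 per Mb against 0.450 per Mb over chromosomes 1 to 19. None of their bases lay in a gene body, against 28.9% of bases in the 400 bp bins of chromosome X outside WT peaks. Of the 18, 11 met a line 1 list, where 0.157% of those bins did.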
